A study of Mus musculus with 8 samples.

Results

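The C/EBP transcription factors, their partner Atf4 and the Tribbles pseudokinases were followed in RAW264.7 cells, a mouse macrophage line, during the first 120 min of exposure to lipopolysaccharide (LPS, 100 ng/ml), a component of the bacterial cell wall. The 8 members were taken by gene symbol (Cebpa, Cebpb, Cebpd, Cebpg, Ddit3, Atf4, Trib1 and Trib3), and all 8 were found among the 23141 genes counted. The samples were 1 untreated culture (0 min) and 7 cultures of the same line exposed to LPS, 1 every 15 min from 15 to 90 min and 1 at 120 min. With 1 library per time point, differences over time could not be checked against replicates, and the 95% intervals beside the ratios cover counting error only. The labels call the RNA fraction cytoplasmic, whereas the paper's results describe total RNA.

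C/EBP proteins are leucine zipper factors that bind DNA as pairs. C/EBPα, encoded by Cebpa, drives myeloid differentiation and restrains proliferation, C/EBPβ and C/EBPδ take part in the induction of acute phase and cytokine genes, C/EBPγ lacks a strong activation domain and pairs with other members, and CHOP, encoded by Ddit3, is a member that does not bind the classical C/EBP site when paired. ATF4 is a related factor whose translation rises when the initiation factor eIF2α is phosphorylated, and Ddit3 and Trib3 are among its targets. The Tribbles proteins TRIB1 and TRIB2 bring C/EBPα to the ubiquitin ligase COP1, and TRIB3 binds ATF4 and the kinase AKT.

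Total counts per library ranged from 100250892 to 159077286. The ribosomal RNA precursor Rn45s took 8.18% to 9.11% of the counts at 0, 30, 60 and 120 min and 13% to 20.5% at 15, 45, 75 and 90 min. Of 9 macrophage markers, 8 had over 1000 counts in every library, Mertk had at most 2, and none of the 8 measured markers of other cell types exceeded 8 counts. Of the macrophage markers, Cd14, a co-receptor for LPS, was called higher from 60 min on and was 3.66-fold (3.62 to 3.69) that at 0 min by 120 min, and the Fc receptor gene Fcgr1 was called lower from 90 min on, at 0.381-fold (0.371 to 0.392) by 120 min. The part of these shifts in the members' values was not tested. The libraries were put on a common scale by median-of-ratios size factors, and a gene was called higher or lower than at 0 min when its log2 ratio exceeded 0.5 either way and an exact negative binomial test of both libraries passed its limit of 0.05, which compares libraries and not conditions. In RNA from a whole culture, fewer cells that express a gene and less RNA per cell cannot be told apart.

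At 60 min of LPS, 5 of the 8 members were called higher than at 0 min (Cebpb, Ddit3, Atf4, Trib1 and Trib3) and 1 was called lower (Cebpa). Over all 23141 genes 2.29% were called higher and 1.58% lower at that time, and over the 10492 genes whose mean normalized count reached 100, to which all members belong, 4.05% and 3.15%. At 120 min the genes called higher were Cebpb, Cebpd and Trib3, 3 of 8, beside 5.19% of all genes. Cebpa was again the 1 called lower, beside 4.54% of all genes. Of the genes whose mean reached 100, 9.27% were called higher and 8.55% lower at 120 min. The median log2 ratio of all genes with a count was 0.01 at 60 min.

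Following the grouping of the methods, a gene belongs to g1 if its first significant extremum is a maximum at or after 60 min, to g2 if it is a minimum at or after 60 min, to g3 if an early maximum is followed by a later minimum, to g4 for the opposite order, and to g0 if it has none. An early extremum with no second one put a gene in none of these groups (0.761% of all genes). Of the 8 members, 5 belonged to g1 (Cebpb, Cebpd, Atf4, Trib1 and Trib3), beside 5.39% of all genes. Cebpa was the 1 member of g2, which held 5.4% of all genes, and Ddit3 the 1 member of g3, which held 0.618%. Cebpg was the 1 member of g0, which held 87.4%. Of the genes whose mean normalized count reached 100, 9.42% belonged to g1, 9.94% to g2, 1.02% to g3 and 77.6% to g0. The first extremum was a maximum at 45 min for Ddit3, at 60 min for Atf4 and Trib1, at 75 min for Trib3 and at 120 min for Cebpb and Cebpd, and a minimum at 75 min for Cebpa. These are the times of the extreme libraries, and most steps to a neighbouring library were not called: the level at 60 min was 0.711-fold that at 45 min for Ddit3 and 1.07-fold for Atf4, and Cebpb at 120 min was 1.05-fold that at 60 min.

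**Figure D1:**
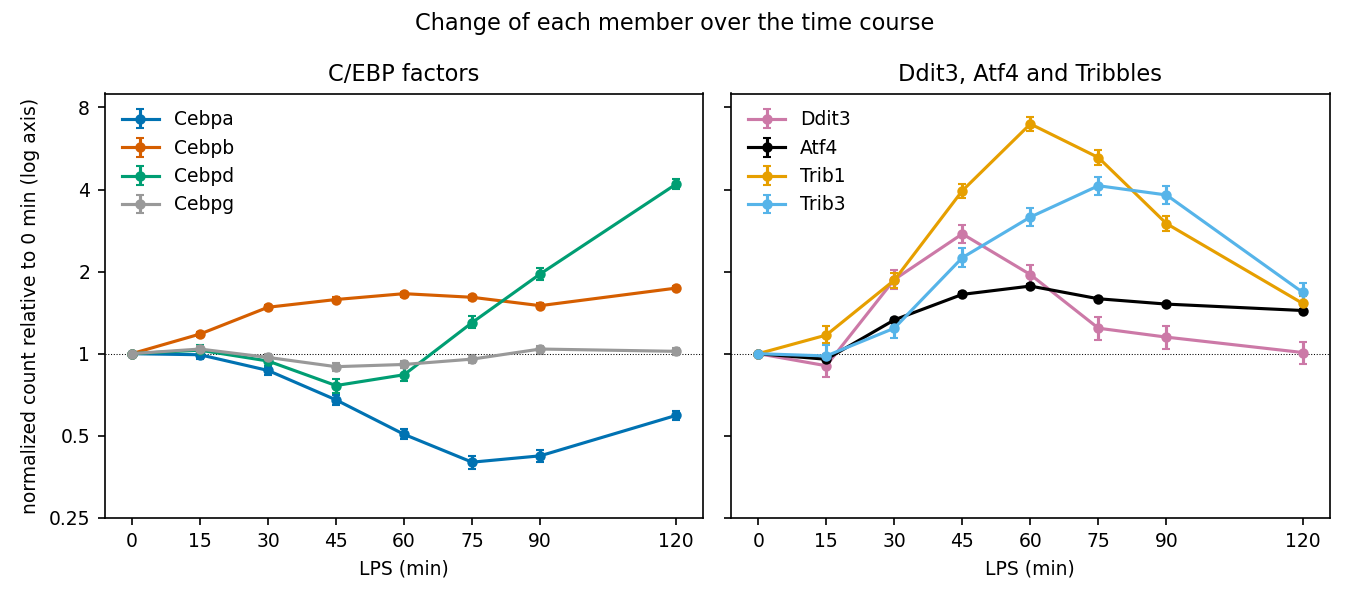
Normalized count of each member relative to 0 min (log axis) against the duration of LPS in minutes, with the C/EBP factors Cebpa, Cebpb, Cebpd and Cebpg on the left and Ddit3, Atf4, Trib1 and Trib3 on the right. Points are single libraries and bars 95% counting intervals; Cebpa reached 0.4-fold at 75 min, Cebpd 4.19-fold at 120 min and Trib1 6.96-fold at 60 min, whereas Cebpg stayed between 0.896-fold and 1.04-fold.

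Cebpa mRNA, transcribed from a gene without introns at chr7:35119293-35121928 on the plus strand (GRCm38, as for all members), was the only member called lower than at 0 min. Its normalized counts were 5568 before LPS, 5520 after 15 min, 4834 after 30 min, 3770 after 45 min, 2817 after 60 min, 2228 after 75 min, 2353 after 90 min and 3309 after 120 min. The level thus declined in each library from 15 to 75 min and was partly restored at 120 min. The ratio to 0 min was 0.506 (95% interval 0.485 to 0.528) at 60 min, 0.4 (0.378 to 0.423) at 75 min and 0.594 (0.571 to 0.618) at 120 min, and it was called lower from 60 min on. The step of 1.49-fold from 75 to 120 min was not called. Because the 75 and 90 min libraries were rich in Rn45s, the other libraries may be read alone, and among those at 0, 30, 60 and 120 min Cebpa was lowest at 60 min. The part of Rn45s in the values was not tested.

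Cebpb (chr2:167688915-167690432, plus strand, without introns) encodes the most abundant C/EBP transcript in these cells. Its normalized counts were 14701, 17294, 21807, 23213, 24336, 23595, 22053 and 25580, in order of time. All 7 libraries after LPS were above the untreated one, and from 30 min on the level moved little. The ratio to 0 min was 1.66 (1.62 to 1.69) at 60 min and 1.74 (1.71 to 1.77) at 120 min, the 2 times at which it was called higher. Both calls were lost with total counts as the scale. The gene shares 312 bases with Tmem189 on the opposite strand, and whether the counting used the strand is not stated.

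Cebpd (chr16:15887286-15889545, plus strand, without introns) responded last and most strongly among the C/EBP factors. The normalized counts were 2587 before LPS, 2658 after 15 min, 2431 after 30 min, 1975 after 45 min, 2166 after 60 min, 3373 after 75 min, 5082 after 90 min and 10836 after 120 min. The lowest libraries were thus those at 45 and 60 min, after which each library exceeded the one before. At 45 min the ratio to 0 min was 0.764 (0.719 to 0.81), which was not called, and at 90 min it was 1.96 (1.87 to 2.06) and at 120 min 4.19 (4.03 to 4.36), both called higher, the former not with total counts as the scale. From 45 to 120 min the level increased 5.49-fold (5.22 to 5.77), and between 90 and 120 min alone 2.13-fold (2.06 to 2.21), each of which was called. The GENCODE transcript used for the length of Cebpd has 3746 bases, whereas the RefSeq gene spans 2260. Cebpd shares 562 bases with Spidr on the opposite strand.

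The 3' UTR of Cebpd holds 7 copies of the pentamer AUUUA, of which 5 lie within the RefSeq span. Such pentamers are the core of AU-rich elements, which mark many short-lived inflammatory mRNAs. Among the 8 members, Cebpd alone contained the extended nonamer UUAUUUAUU, once, 1107 bases after the stop codon. The window around it, chr16:15889228-15889256 on the plus strand, is shown with the nonamer in capitals because Cebpd had the largest late rise of the 8:
Cebpd 3' UTR: gguuggacauUUAUUUAUUguaacagaac
The 3' UTR of Cebpg, whose level moved least, held 10 AUUUA pentamers and no nonamer, and none of the other 6 members held a pentamer. These counts are not on equal lengths: the 3' UTRs had 2900 bases in Cebpd and 3962 in Cebpg. In the other 6 they had from 81 (Atf4) to 2398 (Trib1). No share over all genes was taken for the pentamer or the nonamer. A match is a description of letters and says nothing about use of the element in these cells.

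Cebpg (chr7:35046422-35056566, minus strand) was the flattest member. Its normalized counts lay between 6392 at 45 min and 7431 at 15 min, with 7135 at 0 min and 7255 at 120 min. The highest library thus exceeded the lowest 1.16-fold, and no pair of libraries gave a call.

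Ddit3, also known as CHOP (chr10:127290793-127296291, plus strand), showed the earliest maximum. The normalized counts were 807.6 before LPS, 728.9 after 15 min, 1511 after 30 min, 2217 after 45 min, 1577 after 60 min, 998.4 after 75 min, 925.5 after 90 min and 812.9 after 120 min. The 3 libraries from 30 to 60 min stood above the other 5, and the level at 120 min was 1.01-fold (0.92 to 1.1) that at 0 min. The ratio to 0 min was 1.87 (1.73 to 2.03) at 30 min, 2.75 (2.54 to 2.97) at 45 min and 1.95 (1.8 to 2.12) at 60 min, all called higher. The decline from 45 to 120 min, to 0.367 (0.339 to 0.396) of the maximum, was called as well. Its place in g3 rests on the 45 min library, without which the first maximum is at 60 min and the pattern is g1. That library was rich in Rn45s, and among those at 0, 30, 60 and 120 min Ddit3 was highest at 60 min. The step of 1.04-fold (0.977 to 1.11) from 30 to 60 min was not called. With total counts as the scale the order was reversed, with log2 ratios of 0.88 at 30 min and 0.87 at 60 min. Ddit3 overlaps Mars by 68 bases on the opposite strand.

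Atf4 (chr15:80255184-80257545, plus strand) was the most abundant member throughout. Its normalized counts were 33294, 31764, 44371, 55076, 59082, 52852, 50595 and 47866, in order of time. All 6 libraries from 30 min on were above those at 0 and 15 min, with the highest value at 60 min. The ratio to 0 min was 1.65 (1.63 to 1.68) at 45 min and 1.77 (1.75 to 1.8) at 60 min, both called higher, and 1.44 (1.42 to 1.46) at 120 min, which was not called. The calls at 45 and 60 min were lost with total counts as the scale. The 5' UTR of the Atf4 transcript used contained 3 AUG triplets upstream of the start codon, that of Ddit3 2, those of Cebpa and Cebpg 1 each, and those of the other 4 members none. Upstream reading frames are the known basis of the translational control of ATF4 and CHOP, but translation was not measured by these counts.

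Trib1 (chr15:59648654-59657099, plus strand) had the largest change of all members. Normalized counts of Trib1 were 1208 before LPS, 1411 after 15 min, 2244 after 30 min, 4779 after 45 min, 8412 after 60 min, 6328 after 75 min, 3630 after 90 min and 1845 after 120 min. The values formed a single peak around 60 min. The ratio to 0 min was 1.86 (1.74 to 1.98) at 30 min, 6.96 (6.58 to 7.37) at 60 min and 3 (2.82 to 3.2) at 90 min, all called higher, and 1.53 (1.43 to 1.63) at 120 min, which was not called. The decline from 60 to 120 min to 0.219 (0.209 to 0.23) of the maximum was called.

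Trib3 (chr2:152337425-152344060, minus strand) followed later and more slowly. Its normalized counts were 812.7 before LPS, 797.4 after 15 min, 1008 after 30 min, 1830 after 45 min, 2574 after 60 min, 3353 after 75 min, 3104 after 90 min and 1366 after 120 min. The highest libraries were those at 75 and 90 min, and these 2 differed by less than a called step. Trib3 was called higher at each time from 45 to 120 min, with ratios to 0 min of 2.25 (2.08 to 2.44) at 45 min, 4.13 (3.83 to 4.45) at 75 min and 1.68 (1.55 to 1.82) at 120 min, the last not called with total counts as the scale. The decline from 75 to 120 min to 0.407 (0.382 to 0.434) was called. Both highest libraries were rich in Rn45s, and among the libraries at 0, 30, 60 and 120 min the highest value of Trib3 was that at 60 min.

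Levels of different genes were compared per length, as rpkm (reads divided by the kilobases of unique 58-mers of the transcript and by the depth of the library). At 0 min the order was Atf4 with 178.1 rpkm, Cebpb with 90.7, Cebpa with 19.3, Cebpg with 13.7, Ddit3 with 8.65, Cebpd with 6.26, Trib3 with 3.68 and Trib1 with 2.52. No neighbours in this order had overlapping counting intervals, but there is no replicate spread to set them against, and the place of Cebpd depends on the transcript length assigned to it. At 60 min Trib1 with 16.4 rpkm (16.1 to 16.8) and Ddit3 with 15.8 (15.1 to 16.6) had overlapping intervals and stood above Cebpg with 11.7, Trib3 with 10.9, Cebpa with 9.16 and Cebpd with 4.91. At 120 min Cebpd with 22.8 rpkm came next after Atf4 with 222.6 and Cebpb with 137.2, ahead of Cebpg with 12.1, Cebpa with 9.99, Ddit3 with 7.57, Trib3 with 5.38 and Trib1 with 3.35.

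**Figure D2:**
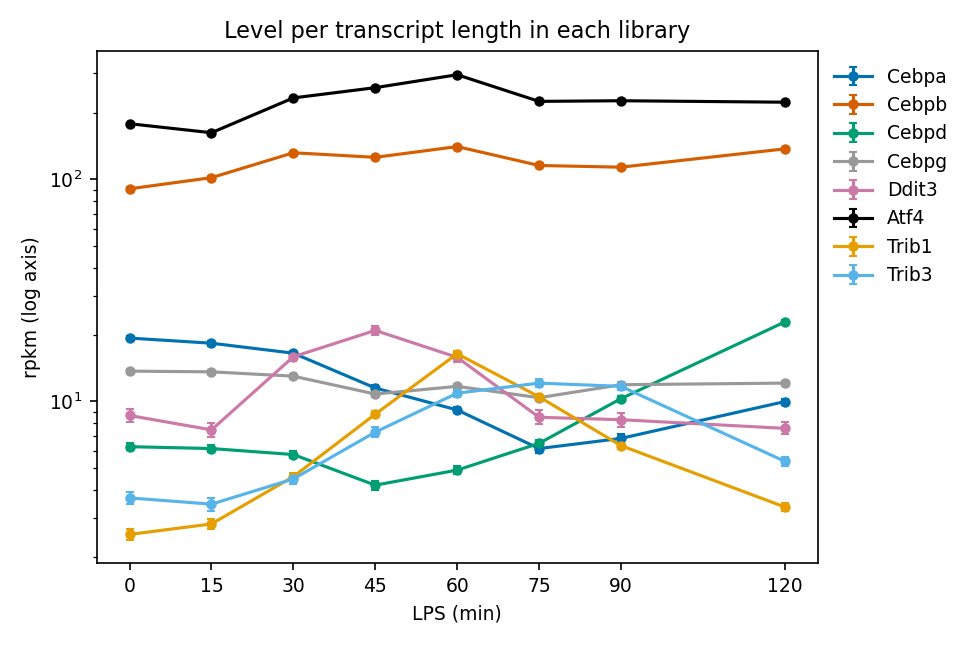
Level of the 8 members in rpkm (log axis) in each of the 8 libraries against the duration of LPS in minutes, with bars for the 95% counting interval. Atf4 and Cebpb stayed above 90 rpkm in all libraries, and the other 6 members stayed below 23 rpkm and changed order between 0 and 120 min. Cebpd is shown with the length of its GENCODE transcript, and the shorter RefSeq span would give it higher values.

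Shares within a library do not depend on the scale between libraries. Of the summed rpkm of Cebpa, Cebpb, Cebpd, Cebpg and Ddit3, Cebpb held 65.4% at 0 min, 78.6% at 75 min and 72.3% at 120 min. Cebpa declined from 14% at 0 min to 4.18% at 75 min and held 5.27% at 120 min. The share of Cebpd was 4.52% at 0 min, 2.43% at 45 min and 12% at 120 min, and with the RefSeq span as its length 7.34%, 4% and 18.6%. Ddit3 had its largest share, 12.1%, at 45 min, compared with 6.24% at 0 min and 3.99% at 120 min. These are shares of transcripts and not of proteins.

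**Figure D3:**
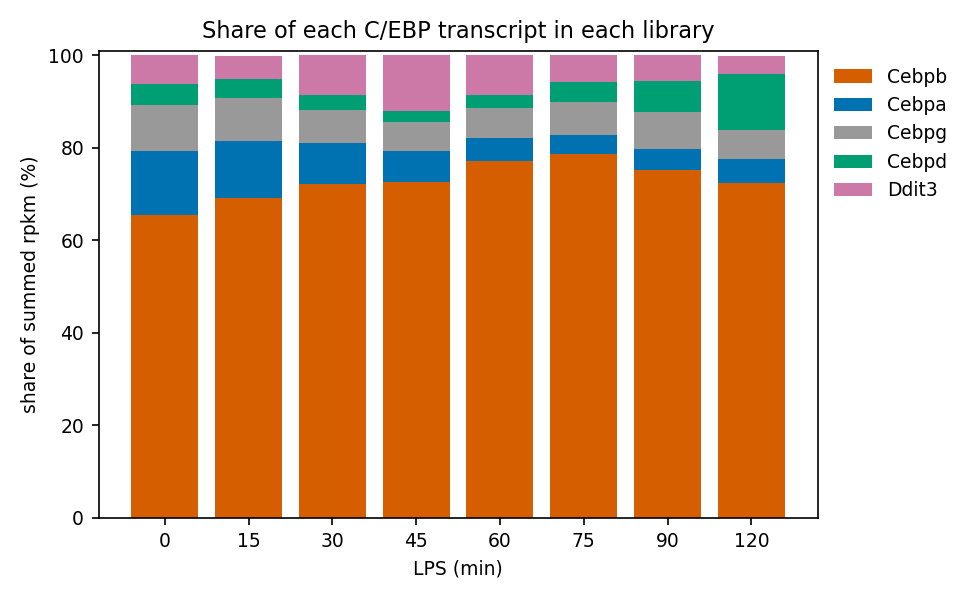
Share of each C/EBP transcript in the summed rpkm of Cebpa, Cebpb, Cebpg, Cebpd and Ddit3 (%) in each library, by minutes of LPS. Cebpb made up 65.4% to 78.6% of the sum in every library, the share of Cebpa was lowest at 75 min with 4.18%, and Cebpd reached 12% at 120 min.

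Ratios of counts between members of the same library likewise do not depend on the scale. There were 2.64 Cebpb counts for each Cebpa count before LPS, 10.6 after 75 min and 7.73 after 120 min. The ratio of Cebpd to Cebpa was 0.465 before LPS, 0.524 after 45 min and 3.27 after 120 min. The ratio of Trib1 to Cebpa, the transcripts of a pseudokinase and of the factor it can send to degradation, was 0.217 before LPS, 2.99 after 60 min and 0.558 after 120 min. Relative to Atf4, Ddit3 peaked at 45 min with 0.0403 counts per Atf4 count against 0.0243 at 0 min and 0.017 at 120 min, whereas Trib3 peaked at 75 min with 0.0634 against 0.0244 and 0.0285.

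**Figure D4:**
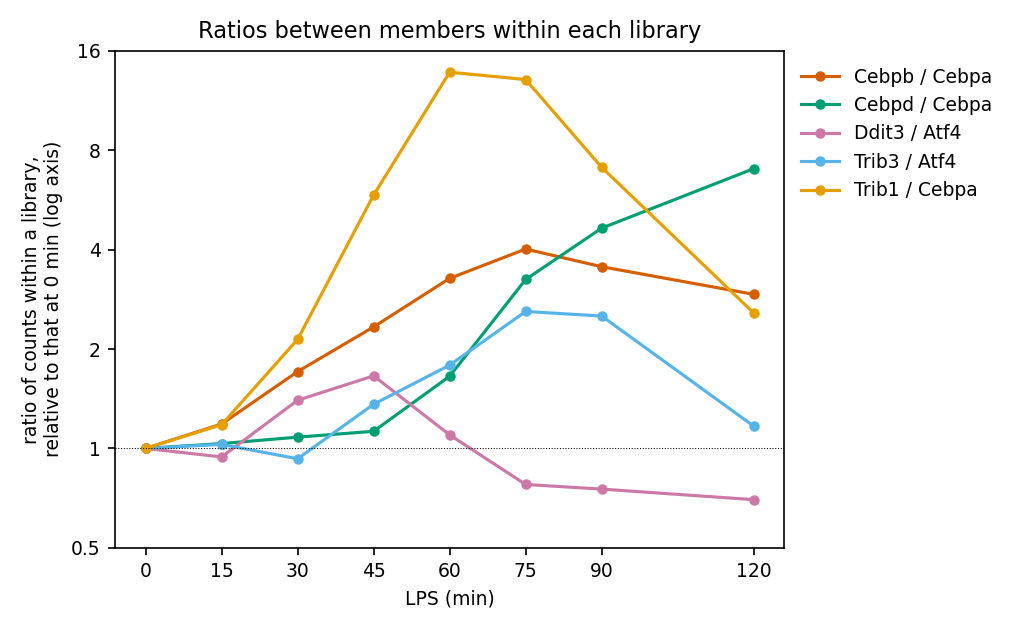
Ratio of the counts of 2 members within each library, divided by that ratio at 0 min (log axis), against the duration of LPS in minutes; each point is 1 library. The ratio of Trib1 to Cebpa was highest at 60 min, those of Cebpb to Cebpa and Trib3 to Atf4 at 75 min, that of Ddit3 to Atf4 at 45 min and that of Cebpd to Cebpa at 120 min.

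The promoters of 6 members, each 250 bases before to 50 after the annotated first base, were taken from RefSeq (GRCm38.p6) and searched on both strands. Cebpd and Trib1 were not analysed here in this respect. The motifs were the cAMP response element TGACGTCA, present in 1.79% of 32851 promoters, its shorter core TGACG, which the full element contains (20.8%), the C/EBP-ATF response element TGATGNAA (3.97%), the C/EBP site TTGCNNAA (10.8%), the NF-κB site GGNNNTTCC (18.5%), the AP-1 site TGANTCA (7.81%) and the TATA box TATAAA (13.6%). The core TGACG was found 3 times in Cebpb, 2 times in Atf4 and 2 times in Trib3. The response element bound by ATF4 with C/EBP partners was found in Trib3 only and the AP-1 site in Ddit3 only. The letters TATAAA began at position -30 from the annotated first base in Cebpa and at -166 in Trib3. In Cebpb they began at 21, downstream of the first base. No full cAMP response element, C/EBP site or NF-κB site was found, which says only that these letters are not in these windows. The 5 windows shown, with the motif in capitals and each read along the strand of its gene, are the 2 sites found in a single member, a TATA box, and the TGACG core of the 2 most abundant members:
Trib3 (chr2:152344028-152344057, minus strand): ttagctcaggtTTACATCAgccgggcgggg
Ddit3 (chr10:127290543-127290572, plus strand): cgcgcgcaTGACTCActcacctcctccgcg
Cebpa (chr7:35119251-35119280, plus strand): tgcccgaccctcTATAAAagcggtccccgc
Cebpb (chr2:167688896-167688925, plus strand): ggggccccagcgTGACGcagcccgttgcca
Atf4 (chr15:80255160-80255189, plus strand): ttcggctttgacCGTCAgagctttggctag
The Trib3 and Atf4 windows hold their motif in reverse complement.

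Genes listed as relatives of the members, by symbol or family, differed widely in response. Of 7 listed relatives, 2 were called higher at both 60 and 120 min (Atf3 and Stk40), beside 2.29% and 5.19% of all genes. None was called lower at either time, beside 1.58% and 4.54%. The median log2 ratio was 0.43 at 60 min and 0.55 at 120 min over the 6 above 3 counts. Atf3, an ATF family factor, rose from a normalized count of 3201 to 42255 at 45 min, 13.2-fold (12.8 to 13.7), and was still 5.91-fold up at 120 min. Stk40, a pseudokinase related to the Tribbles, rose in each library from 45 min on, to 7.08-fold (6.74 to 7.44) at 120 min, and the leucine zipper factor Nfil3 to 3.75-fold (3.53 to 3.97) at 75 min. Cebpe, the granulocyte member, had normalized counts between 231 at 120 min and 419.6 at 15 min and was not called, nor was Atf5, at 1.56-fold (1.49 to 1.63) at 120 min. Trib2 had a single count in all 8 libraries together, so that Trib1 and Trib3 were the Tribbles transcripts detected at this depth.

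Among 8 kinases, subunits and phosphatase regulators of eIF2α, Ppp1r15a, encoding the inducible phosphatase subunit GADD34, was the only one called higher at 60 and 120 min. This was 1 of 8, beside 2.29% and 5.19% of all genes. Ppp1r15a was called higher already at 15 min, with 4.43-fold (4.21 to 4.66). It was at 47.8-fold (45.7 to 50.1) at 30 min and 47.9-fold (45.7 to 50.1) at 45 min. Its constitutive relative Ppp1r15b was at 1.22-fold (1.2 to 1.24) at 60 min and was not called. The kinase gene Eif2ak3, encoding PERK, was called lower from 75 min on, with 0.426-fold (0.398 to 0.455) at 90 min. At 120 min it was the 1 of 8 called lower, beside 4.54% of all genes. The median of the list was 0.14 at 60 min and 0.07 at 120 min on the log2 scale.

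Of 35 target genes of ATF4 and CHOP, a list that includes Ppp1r15a, 6 were called higher at 60 min (Chac1, Sesn2, Ddit4, Slc7a11, Slc3a2 and Ppp1r15a) and none lower, beside 2.29% of all genes and 4.05% of those whose mean reached 100. The shares called lower at 60 min were 1.58% and 3.15%. At 120 min 11 were called higher, beside 5.19% and 9.27%, and 1 lower, beside 4.54% and 8.55%. The median log2 ratio of the 32 genes above 3 counts was 0.32 at 60 min and 0.57 at 120 min. With total counts as the scale, the number called higher at 120 min was 4. The cystine transporter gene Slc7a11 was called higher from 60 min on, with 2.15-fold (2.08 to 2.23) at 60 min and 6.53-fold (6.34 to 6.74) at 120 min. Ddit4, an inhibitor of mTORC1 signaling, instead resembled Ddit3 in timing: it reached 7.71-fold (6.66 to 8.97) at 45 min and fell to 0.451-fold (0.352 to 0.575) at 120 min, a called decrease. The others called higher at 120 min were Asns, Sesn2, Mthfd2, Slc7a5, Slc7a1, Nupr1, Ero1l, Cth, Cars and Ppp1r15a.

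The list of chaperones of the endoplasmic reticulum and other parts of the unfolded protein response held 18 genes. At 60 min 2 were called higher (Dnajb9 and Herpud1), beside 2.29% of all genes. At 120 min 1 of 18 was called higher (Herpud1), beside 5.19% of all genes, and 1 lower (Xbp1), beside 4.54%. The median log2 ratio was 0.02 at 60 min and -0.07 at 120 min. Herpud1 reached 2.94-fold (2.88 to 3) at 60 min and 3.28-fold (3.21 to 3.35) at 90 min. Dnajb9 had its highest value, 3.03-fold (2.8 to 3.28), at 45 min. Xbp1, which encodes a factor of this response, was at 0.539-fold (0.529 to 0.55) at 120 min.

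Of 10 genes for the COP1 ligase and partners of the Tribbles, none was called at 60 min. Over all genes 2.29% were called higher and 1.58% lower at that time. The medians of the list were 0.05 at 60 min and 0.18 at 120 min on the log2 scale. At 120 min 1 was called higher, beside 5.19% of all genes and 9.27% of those whose mean reached 100. This was Rfwd2, encoding COP1 itself, which rose 1.62-fold (1.57 to 1.67) at 90 min and 2.12-fold (2.07 to 2.18) at 120 min. Of 19 known myeloid C/EBP targets, 6 were called higher at 60 min (Il6, Il1b, Il10, Csf3, Ptgs2 and Saa3), beside 2.29% of all genes. At 120 min 7 were called higher, with Nos2 in addition, beside 5.19%. None was called lower at either time, beside 1.58% and 4.54%. The 11 above 3 counts, which include those that passed only through their rise, had a median log2 ratio of 2.17 at 60 min and 5.49 at 120 min. Il1b, encoding interleukin-1β, went from a normalized count of 38.5 at 0 min to 9961 at 60 min and 108097 at 120 min. Il6 had 1 count before LPS and 1202 after 120 min, a ratio of 1139 with a counting interval of 204 to 45015, and Csf3 had 3 and 11887 counts, a ratio of 3754 (1284 to 18205). These genes answer to several LPS-induced factors, and no link to a C/EBP factor was tested.

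For each member, the genes of most similar course were sought among genes whose mean normalized count reached 100 and that had a called extremum, by Pearson's r of log2 values over the 8 libraries, which share their depth and scale with the member. The highest r was 0.994 for Cebpa (with Gzf1, followed by Bid and Trim21), 0.979 for Cebpb (Nfkbiz, then Cxcl2 and Ccrl2) and 0.997 for Cebpd (Lrrc25, then Itpripl2 and Polm). It was 0.983 for Ddit3 (Il20rb, then Apoe and Pnrc1), 0.991 for Atf4 (Prr7, then Slc3a2 and Insig1), 0.99 for Trib1 (Pcf11, then Adnp2 and Ints6) and 0.984 for Trib3 (Sesn2, then Zfp420 and Rabgef1). For Cebpg, which had no extremum itself, the highest was 0.924 (Zfp949, then Zfp7 and Hist1h2ao). With Spearman's rho or without the 45 min library, 14 of the 16 sets of similar genes changed. Between members, r was -0.97 for Cebpa with Trib3, 0.89 for Atf4 with Trib1 and 0.89 for Atf4 with Cebpb, each over 8 libraries and given as a description. It was also -0.89 for Cebpg with Ddit3, although the libraries of Cebpg spanned only 1.16-fold without a call.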

How the data were processed

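For 8 libraries the authors deposited a single table of unnormalized counts per gene. According to the methods, ribosomal RNA was removed, libraries were made with a directional kit, and reads of 58 bases were aligned to the RefSeq transcriptome with Bowtie. Reads of more than 1 gene were discarded. The submitters' processing notes name CASAVA 1.8.2, DESeq 1.10.1 and the builds mm10 and GRCm38, and the Bowtie version is not given in the sources used here. Of 23143 rows, 2 are spike-in transcripts (0.0208% to 0.0316% of counts) and were left out.

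Size factors, a parametric dispersion trend over the 8 libraries treated as replicates (0.0287 + 0.853/mean, after the study's DESeq settings) and the exact negative binomial test of edgeR 4.0.16 (R 4.3.3) for each pair were computed for all genes, with no adjustment of p. The code was also run on simulated counts. These were drawn with a smaller dispersion than that trend, so they cannot show how the calls behave at the spread between cultures. With 1 library a group, no quasi-likelihood test could be made. Ratios have exact conditional binomial and rpkm values exact Poisson 95% intervals, for counting error only. Unique 58-mers were counted in GENCODE vM21 transcripts, and positions come from RefSeq. A count of 0 was set to 3 counts in list medians, and genes at 3 counts or fewer in both libraries were left out of them. Python 3.11.15, pandas 2.3.3 and scipy 1.17.1 were used.

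Members and gene lists were chosen with earlier results of these data known. All members are named. From each list, up to 3 genes are named: those with the largest called log2 ratio, if their mean normalized count reached 100, besides Trib2, Cebpe, Atf3, Atf5, Ppp1r15a and Ppp1r15b. For each member, the 3 most similar genes are named. Other genes called at 60 or 120 min are named without values, and were chosen after their values were seen. Alternatives were other scales, dispersion trends (edgeR, DESeq2 1.42.0), limits, adjustment, filters, lengths, and each library left out. The spike-in scale, the RefSeq span of Cebpd, 58-mers on both strands and the comparison with genes of like length were chosen after seeing the data.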

Additional observations from a re-analysis of the deposited data

How the results depend on the processing

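For calls of single members, other scales, dispersion trends, limits, adjustment and filters were tried. Under all of these, calls held for Cebpa at 75 and 90 min, Cebpd at 120 min and Ddit3 at 45 min. They also held for Trib1 from 45 to 90 min and Trib3 from 60 to 90 min. The number called higher at 60 min (5) was 3 with total counts, with total counts without Rn45s and with the edgeR dispersion trend, and 2 with a log2 limit of 1, with Benjamini-Hochberg adjustment, with the fold alone and with the spike-in scale. The number called higher at 120 min (3) was 1 with both total-count scales, the limit of 1, the adjustment, the fold alone and the spike-in scale, and 2 with the edgeR trend. The number called lower (1 at 60 and at 120 min, Cebpa) was 0 with the limit of 1, the adjustment and the fold alone. With total counts, the limit of 1 or the adjustment, g0 held 3 members (1 before) and g1 held 3 (5 before), as Cebpb and Atf4 went from g1 to g0. Leaving out 1 library at a time, g3 held 0 to 1 members, 0 without the 45 min library, g1 held 4 to 6, and without the 60 min library Atf4 had its maximum at 45 min with no later minimum. Among the lists at 120 min, the relatives called lower went from 0 to 1 with total counts. With the limit of 1, the eIF2α genes called lower went from 1 to 0 and the unfolded protein response genes called lower from 1 to 0. The ATF4 and CHOP targets called higher (11) were 4 with total counts and 5 with the limit of 1. No called log2 ratio changed sign. Genes of like transcript length (within 1.25-fold) had median log2 ratios between -0.19 and 0.1, against which no called member changed direction. No paired analysis was possible because each time point has 1 library.

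Total counts lowered the log2 ratios by up to 0.33 (at 75 min) relative to the scale used. The spike-in scale shifted those at 60 min by -0.3. On that scale Atf4 was highest at 45 min (0.78, against 0.53 at 60 min) and Cebpb at 75 min (0.75, against 0.69 at 120 min). Cebpa was then lowest at 60 min (-1.28, against -1.25 at 75 min). With 1 library per time point the spread between cultures is unknown. Counting intervals were narrow for the members and wide for Il6 and Csf3, with 1 and 3 counts at 0 min.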
